A study of Mus musculus with 31 samples.

Results

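The genes described here were 9 interferon-induced genes measured in the forebrain of newborn mice: the transcription factors Irf1 and Irf7, the ubiquitin-like modifier Isg15 and its protease Usp18, the IFIT family members Ifit1, Ifit2 and Ifit3, and the antiviral or pro-apoptotic genes Rsad2 and Xaf1. They are a list of names, with no measured value in the rule, but the list was chosen with earlier results of these data known. They were 9 of the 19902 genes with a symbol on the arrays. Where several probes measured a gene, the brightest one was used. The material came from NMRI mice, an outbred strain, at 5 days of age, all of unmodified genotype as far as the labels state, and each RNA sample was a pool of 6 hemispheres with the olfactory bulb removed, so that single animals cannot be seen and the p-values measure the spread between pools. On each 2-colour array a test pool was labelled with Cy5 and a reference pool with Cy3, and no dye was swapped. Experiment 1 compared mice given 1 injection of magnesium sulphate (MgSO4, 600 mg/kg, Mg) with controls (Ctrl) at 3, 6, 12 and 24 h, with 4, 7, 4 and 4 arrays. Experiment 3 compared mice after hypoxia-ischemia (HI), which was ligation of the right carotid artery followed by a low-oxygen atmosphere, with control mice at 3 h and 12 h (3 arrays each). Experiment 2 compared mice given MgSO4 before HI (MgHI) with a reference at 3 h and 12 h (3 arrays each). The labels call the injection subcutaneous and the controls PBS-injected, whereas the study's methods name an intraperitoneal injection and, for Experiment 3, untreated controls.

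Interferons are secreted proteins that signal through a type I receptor (IFNAR) or a type II receptor (IFNGR). Through JAK kinases, type I receptors activate a transcription factor complex that includes STAT2 and IRF9 and binds the interferon-stimulated response element, and type II receptors activate factors that bind the gamma-activated sequence. Genes such as Isg15 and the IFIT family are known targets of the first element, and Irf1 is a known target of the second. In the brain such genes can be expressed by microglia, astrocytes, endothelial cells and neurons. Because whole hemispheres were measured, a change in the number of cells of a type and a change in RNA per cell cannot be told apart.

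The promoters of 5 of the genes are shown because they carry the letters that those factors bind and because the arrays followed these genes in 3 experiments. Each run holds the 180 bases before the RefSeq start on build GRCm38.p6, written 5′ to 3′ on the gene's strand, with matches in capitals to GAAA, any 2 bases and GAAA (or, on the other strand, TTTC, any 2 bases and TTTC), the core of the interferon-stimulated response element, or to TTCNNNGAA, the core of the gamma-activated sequence. Ifit1 lies at chr19:34640709-34640888 and Ifit3 at chr19:34583349-34583528, both on the plus strand of chromosome 19, where Ifit2 is also found. Irf1 lies at chr11:53769834-53770013 (plus strand), Isg15 at chr4:156200819-156200998 (minus strand) and Rsad2 at chr12:26456453-26456632 (minus strand).
Ifit1: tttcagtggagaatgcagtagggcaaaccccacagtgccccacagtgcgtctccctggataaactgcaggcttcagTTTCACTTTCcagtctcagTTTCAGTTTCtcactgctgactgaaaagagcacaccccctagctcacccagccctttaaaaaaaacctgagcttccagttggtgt
Ifit3: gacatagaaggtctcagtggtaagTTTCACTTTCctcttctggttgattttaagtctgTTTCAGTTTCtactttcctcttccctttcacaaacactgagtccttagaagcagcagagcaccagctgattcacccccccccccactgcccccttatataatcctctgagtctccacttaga
Irf1: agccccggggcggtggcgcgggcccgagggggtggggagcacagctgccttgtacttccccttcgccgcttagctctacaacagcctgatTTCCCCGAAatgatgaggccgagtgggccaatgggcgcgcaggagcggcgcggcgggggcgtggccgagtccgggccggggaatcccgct
Isg15: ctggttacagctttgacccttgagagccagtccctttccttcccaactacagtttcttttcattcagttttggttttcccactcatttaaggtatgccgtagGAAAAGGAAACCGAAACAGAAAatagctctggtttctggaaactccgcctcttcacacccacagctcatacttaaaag
Rsad2: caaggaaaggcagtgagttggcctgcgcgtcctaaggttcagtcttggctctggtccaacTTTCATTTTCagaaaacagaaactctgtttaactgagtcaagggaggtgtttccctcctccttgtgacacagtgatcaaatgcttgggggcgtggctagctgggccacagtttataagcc
Both strands of the 300-base RefSeq promoter entries (250 bases before to 50 after the start) were searched. The response element core was found for 4 of the 8 genes with an entry, against 3.99% of 27025 genes. These were Ifit1 (2 matches), Ifit3 (2 matches), Isg15 (3 overlapping matches) and Rsad2 (1 match). By entry, 4 of 10 matched, against 3.44% of all 32851 entries. TTCNNNGAA was found for Irf1 and Ifit2, 2 of the 8 genes, against 9.55% of 27025 genes (8.3% of all entries). Both genes also had another entry without a match. No match to either was found in the windows of Irf7 and Xaf1, and no match to one overlapped a match to the other. These matches describe letters and were not tested as binding sites.

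Between 45.2% and 69.7% of probes were well above background in Cy3 and between 54.4% and 70.2% in Cy5. The 8 forebrain marker genes were all well above background in most of the reference samples of Experiments 1 and 3, while 1 of 8 hindbrain markers was. Ifit1 was not well above background in any of those 25 control samples, while Irf7 was in 3 and Usp18 in 10, so for these genes the reference level was often only a bound. A gene was tested where its probe was well above background in Cy3 or in Cy5 on at least 66.7% of the arrays of any 1 group compared. For single channels only the channel compared was used. Members were counted once per gene, by the brightest probe. Shares and counts given below for all genes were taken over all tested probes with a symbol, so a gene with several probes counted more than once.

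At 12 h after HI, the tested interferon-induced genes stood above control on every array. All 7 of the tested genes had a positive log2 ratio on all 3 arrays, a pattern found for 24.6% of all tested genes, and their median log2 ratio was 1.23 against 0.00306 over all tested genes. None of the 7 passed the limma test at an adjusted p of 0.05 with a fold of 1.5. The pass rate was 0.0106% over 18930 probes, whose only calls were Ccl4 and Lilrb4a. At an unadjusted p under 0.05 with the same fold, 5 of the 7 were higher (Ifit3, Isg15, Rsad2, Usp18 and Xaf1) and none was lower, against 6.57% of all tested genes higher. The methods' t-test at unadjusted p with that fold called 1 of the 7 (Ifit3) and 4.93% of all tested genes. By the other route of the study's selection, a mean change of 2-fold or more whatever the p, added after the data were seen, the same 5 genes were higher, against 1.29% of all tested genes. The values below are therefore measured differences that did not pass the correction over all genes. Because the members were chosen with earlier results of these data known, the shares over all genes describe the members and do not test them as a set.

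Isg15 encodes a small protein that is joined to other proteins in response to interferon and was the most strongly measured member of the modifier system. Its control signals at 12 h were 133.9%, 69.9% and 65.2% of the array's 75th percentile of signal, and its HI signals were 160.2%, 222.8% and 163.5%. Every HI sample was above every control sample. Such levels set Cy5 against Cy3, each scaled to its own percentile. How often they did not overlap over all genes was not counted, here or for the members below. Replicate 1 had both the highest control level and the smallest ratio. The log2 ratios were 0.26, 1.67 and 1.32, with a mean of 1.08 (SE 0.28, n = 3, limma adjusted p = 0.101), a 2.12-fold higher level. A second probe for Isg15 gave 1.25 (limma adjusted p = 0.0952). Usp18 removes ISG15 from its targets and also binds the type I receptor, where it damps the signal. Its control signals were 4.1%, 2.9% and 6.3% of the 75th percentile and its HI signals 14.1%, 15.4% and 10%, again without overlap, the control of replicate 2 being not well above background. The log2 ratios were 1.80, 2.38 and 0.67, with a mean of 1.62 (SE 0.33, n = 3, limma adjusted p = 0.0803), a 3.07-fold higher level.

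The IFIT proteins bind foreign RNA and hold back its translation. Ifit3 had control signals of 8.3%, 9.9% and 8.2% of the 75th percentile and HI signals of 17.8%, 34.1% and 18.1%, so the samples did not overlap. Its log2 ratios were 1.11, 1.78 and 1.14, with a mean of 1.34 (SE 0.18, n = 3, limma adjusted p = 0.0735), the smallest adjusted p of the 7 genes. Ifit2, its neighbour on the chromosome, was closer to control with ratios of 0.58, 0.58 and 0.05 and a mean of 0.40 (SE 0.16, adjusted p = 0.175). Ifit1 was not tested, because it was well above background in Cy3 on none of the 3 arrays and in Cy5 on 1. Its ratios of 1.41, 2.94 and 2.07 therefore rest on signals that were mostly not above background, and no fold is given.

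Rsad2 encodes viperin, an enzyme that makes a chain-terminating nucleotide. Its control signals at 12 h were 3.5%, 5.9% and 5.2% of the 75th percentile against 8.3%, 22.6% and 7.4% after HI, without overlap, the control of replicate 1 being not well above background. The log2 ratios of 1.27, 1.93 and 0.50 gave a mean of 1.23 (SE 0.28, limma adjusted p = 0.0879). Xaf1 encodes an antagonist of the caspase inhibitor XIAP. Its control signals were 13.5%, 3.5% and 4.8% and its HI signals 17.7%, 23.9% and 18.9%, with ratios of 0.39, 2.77 and 1.97 and a mean of 1.71 (SE 0.44, adjusted p = 0.1002), 3.27-fold. Replicate 1 again had the highest control level and the smallest ratio, and the control of replicate 2, with the largest, was not well above background. A second, dimmer Xaf1 probe gave 0.27 (SE 0.30, limma adjusted p = 0.584). It was well above background on 1 of 3 arrays in each channel, so its ratio rests mostly on dim signals. Whether the 2 probes of this gene disagree is therefore not settled.

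The transcription factors had small or unmeasured differences at 12 h. Irf1, which drives genes downstream of both interferon types, had overlapping control signals of 39.1%, 51.8% and 45.9% and HI signals of 50.2%, 73.4% and 56.3% of the 75th percentile at 12 h. Its ratios of 0.36, 0.50 and 0.29 gave a mean of 0.38 (SE 0.12, limma adjusted p = 0.125). Irf7, the factor that amplifies type I interferon production, was well above background on replicate 1 only, was not tested, and had ratios of -0.36, 1.45 and -0.27.

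**Figure D1:**
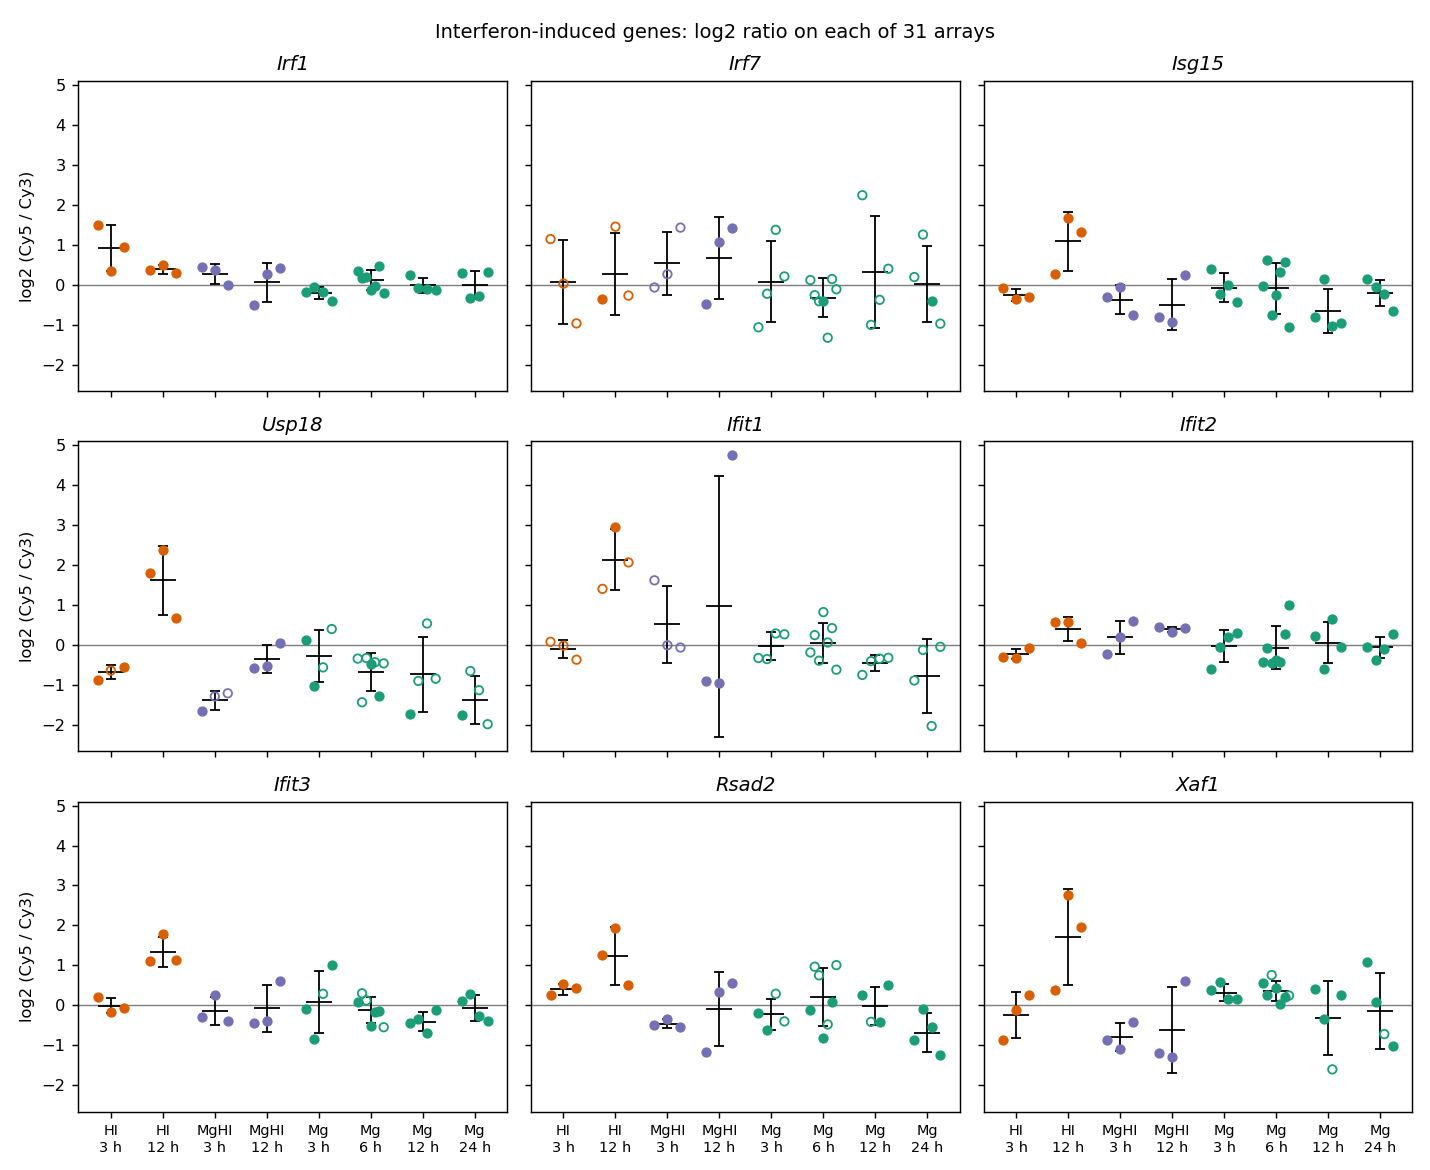
Log2 ratio of Cy5 over Cy3 (y axis) of each interferon-induced gene on each of the 31 arrays, by group (x axis), with a point per array (open where the probe was well above background in neither channel) and bars for the group mean and SD. At 12 h after HI the ratios of Ifit3, Isg15, Rsad2, Usp18 and Xaf1 lie between 0.26 and 2.77, whereas at 3 h those of Isg15 and Usp18 are all below 0.

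The size of these 12 h differences and the number called depended on single libraries and on the background correction. Without replicate 1, 4 of the 7 genes passed (Ifit3, Isg15, Usp18 and Xaf1, among 794 genes in all), without replicate 3, 5 passed (3330 in all), and without replicate 2 none did (18 in all). A limma fit that shared its estimate of spread over all 8 groups of arrays called the 5 genes named above, with adjusted p from 5.12e-04 for Ifit3 to 0.0141 for Isg15, among 1107 genes in all. With normexp background correction and loess in place of the scanner's processed signals the means were smaller, at 0.99 for Isg15, 0.63 for Ifit3, 0.58 for Xaf1, 0.48 for Usp18 and 0.40 for Rsad2.

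Among cell type markers at 12 h, the summed choroid plexus signal was higher in HI on all 3 arrays (log2 ratio 0.42 to 1.12) and that of microglia by 0.01 to 0.28, while the sums of neutrophil markers (-0.88 to 0.93), other myeloid markers (-0.56 to 0.04), lymphoid markers (-0.67 to 0.17) and endothelial markers (-0.45 to 0.32) took both signs. Of the 8 microglial markers 3 had a positive mean (median -0.13), and the erythroid sum was above 0 on all 3 arrays, up to 0.75. No marker of any of these lists passed the limma test at 12 h, and their part in the interferon-induced values was not tested.

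At 3 h after HI the pattern was different. Of the 7 tested genes none was higher and 1 was lower at the same threshold, and the median log2 ratio of the 7 was -0.23. Of 18921 tested probes 3.79% were called (2.42% higher and 1.37% lower). Irf1 had the largest difference, with control signals of 37.7%, 38.1% and 35.5% of the 75th percentile against 107%, 48.7% and 67.3% in HI. All 3 HI samples were above the controls, most of all replicate 1. The log2 ratios were 1.49, 0.35 and 0.93, with a mean of 0.92 (SE 0.22, n = 3, limma adjusted p = 0.0528, 1.90-fold), just above an adjusted p of 0.05. Irf1 passed with normexp correction (0.76, adjusted p = 0.00345), without background subtraction (adjusted p = 0.00306), in the fit over all 8 groups (adjusted p = 0.00154) and without replicate 2 (1.21, adjusted p = 0.0288). It did not pass in 7 of 12 other settings, among them without replicate 1 (0.64, adjusted p = 0.0881), without replicate 3 (adjusted p = 0.102) and the methods' t-test at unadjusted p, which called Usp18 alone of the members (3.04% of all genes).

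Usp18 was the gene called lower at 3 h, with ratios of -0.88, -0.64 and -0.54 and a measured mean of -0.68 on the log2 scale (SE 0.09, n = 3, limma adjusted p = 0.0213). Its probe was dim, being well above background in control on replicates 1 and 3 and in HI on replicate 3 only, so the HI level was only a bound on the other arrays and the size of the difference is not settled. The call did not pass with normexp correction (-0.10, adjusted p = 0.223), without background subtraction (-0.18, adjusted p = 0.0564), without the filter on dim probes (adjusted p = 0.0718) or in the fit over all 8 groups (adjusted p = 0.305). Without replicate 1 or replicate 3 it was no longer tested.

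Rsad2 had ratios of 0.26, 0.54 and 0.43 at 3 h, with a mean of 0.41 (SE 0.08, limma adjusted p = 0.0376), a 1.33-fold higher level that passed the p but not the fold of 1.5. Isg15 was slightly lower on all 3 arrays (-0.09, -0.36 and -0.32, adjusted p = 0.0897), as was Ifit2 (-0.29, -0.31 and -0.08, adjusted p = 0.103). Neither met the threshold. Xaf1 (-0.86, -0.11 and 0.27, adjusted p = 0.48) and Ifit3 (0.21, -0.16 and -0.07, adjusted p = 0.968) had ratios of both signs. Ifit1 (0.08, -0.01 and -0.37) and Irf7 (1.14, 0.03 and -0.97) were well above background in neither channel on any 3 h array and were not tested. Of 6 tested neutrophil markers 3 were called higher at 3 h (S100a8, S100a9 and Retnlg) and 4 had a positive mean. In the other direction, 1 neutrophil marker was lower by limma at an unadjusted p under 0.05 with a fold of 1.5. The summed neutrophil log2 ratio was 0.39 to 0.68. The summed microglial signal differed by 0.11 to 0.12, although only 1 of 8 microglial markers had a positive mean (median -0.12). The part of these markers in the 3 h values was not tested.

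The change between the time points was compared as the 12 h ratio minus the 3 h ratio, each against its own controls. It was positive for 6 of the 7 genes and negative for Irf1 (-0.54, limma adjusted p = 0.363). No probe passed over the whole array (0% of 19325), although 3299 probes had an unadjusted p under 0.05. At that p and a fold of 1.5, 6 of the 7 were higher at 12 h against 3.78% of all genes, and for 5 of the 7 (Ifit2, Ifit3, Isg15, Usp18 and Xaf1) every 12 h ratio was above every 3 h ratio, against 13.2% of all genes. The difference was 2.30 for Usp18 (SE 0.40, limma adjusted p = 0.108), 1.94 for Xaf1, 1.35 for Ifit3 (adjusted p = 0.0979), 1.34 for Isg15, 0.83 for Rsad2 and 0.63 for Ifit2. The dimmer second Xaf1 probe gave -0.16 (limma adjusted p = 0.906). The only slide that held both time points carried 1 array of each. Within it the differences were 2.34 for Usp18, 1.17 for Ifit3, 0.84 for Rsad2, 0.66 for Ifit2, 0.58 for Isg15 and 0.12 for Xaf1, and -0.57 for Irf1, and with slide as a block 2 genes (Ifit3 and Usp18) were higher at the unadjusted p.

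In Experiment 1, MgSO4 without HI was not followed by a called change in any tested member at any time. Ifit1, Irf7 and Usp18 were too dim to be tested at any of these times. Their ratios were below 0 on 13, 11 and 16 of the 19 arrays, from signals mostly not well above background, so no size is given. The share over all genes was not counted. Of the 5, 4, 6 and 6 genes tested at 3, 6, 12 and 24 h, limma called none, against 0%, 0.0283%, 0% and 0.00555% of all tested genes, and over the 4 times together the adjusted p were 0.929 to 0.995. At an unadjusted p under 0.05 with a fold of 1.5 there was 1 lower gene at 12 h (Isg15) and 1 at 24 h (Rsad2), against 0.515% and 0.244% of all genes lower. Isg15 signals at 12 h were 109.2%, 78.5%, 98.9% and 106.6% of the 75th percentile in control and 62.4%, 86.2%, 48.7% and 54% after MgSO4, a mean log2 ratio of -0.66 (n = 4, adjusted p = 0.305). The groups overlapped through replicate 2. Over all 19 arrays the ratios of Irf1 ran from -0.40 to 0.47 with a median of -0.07, those of Ifit3 from -0.85 to 1.02 (median -0.14) and those of Ifit2 from -0.60 to 1.00 (median -0.05). Rsad2 at 24 h had a mean of -0.68 (n = 4, adjusted p = 0.349), with Cy5 well above background on 2 of 4 arrays, so its size is not settled. Xaf1 was positive on all 7 arrays at 6 h, with a mean of 0.36 (limma adjusted p = 0.226), a pattern found for 3.21% of all genes, and on 15 of the 19 arrays of the experiment. At 6 h the arrays of 1 group went against each other, with correlations over all probes from -0.42 to 0.86 and 5 of 21 pairs below -0.3 (replicates 1, 2 and 6 against 3 and 7), so the 6 h means average arrays of opposite course. The direction was kept because the methods state the dyes.

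Each HI ratio was also set against the MgSO4 ratio of the same time, as both had control RNA in Cy3. The HI and MgSO4 arrays shared no slide and no scan day, so treatment, experiment, slide and scan day cannot be told apart here. At 12 h the HI ratios were higher for 5 of 7 genes at an unadjusted p under 0.05 with a fold of 1.5, against 2.75% of all genes, and none was called (0.0366% of all). The difference was 1.75 for Ifit3 (limma adjusted p = 0.0800), 1.74 for Isg15 (adjusted p = 0.249), 2.02 for Xaf1 and 1.25 for Rsad2. The dimmer second Xaf1 probe gave 0.06 (limma adjusted p = 0.981). Usp18, the other of the 5, entered through the HI arrays alone: on the MgSO4 arrays at 12 h it was well above background on 1 of 4 in Cy3 and none in Cy5, so no difference is given for it. At 3 h the difference was 1.13 for Irf1 (limma adjusted p = 0.109), with 0.631% of all genes called. Rsad2 entered at 3 h through the HI arrays alone and is given no difference. On the MgSO4 arrays at 3 h it was well above background on 2 of 4 in each channel. With normexp correction Ifit3 passed at 12 h and Irf1 at 3 h.

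For Experiment 2 the sources do not settle which channel held the MgHI sample: the labels and methods put it in Cy5 while the study's figures put it in Cy3, and the titles and the Cy3 source name the reference as MgSO4-treated mice. The study itself describes the experiment as MgHI compared with HI. Values are therefore given by channel. At 3 h, 1 of 6 tested genes passed, against 7.62% of all tested genes (1.5% higher in Cy3). This was Xaf1, whose Cy5 over Cy3 ratios were -0.87, -1.08 and -0.41, a level lower in Cy5 by a log2 mean of -0.79 (SE 0.15, n = 3, limma adjusted p = 0.0296). It did not pass with normexp correction (-0.28, adjusted p = 0.0758) or without replicate 2 (-0.64, adjusted p = 0.0809). Rsad2 had ratios of -0.50, -0.33 and -0.53 (mean -0.45, adjusted p = 0.0438, under the fold of 1.5). Usp18, at -1.66, -1.28 and -1.21, was never well above background in Cy5 and on 1 of 3 arrays in Cy3, and was not tested. The other tested genes did not pass: Irf1 had 0.45, 0.38 and -0.02, Isg15 -0.30, -0.05 and -0.77, Ifit2 -0.22, 0.21 and 0.61, and Ifit3 -0.29, 0.25 and -0.38. Irf7 (-0.07, 0.26 and 1.43) and Ifit1 (1.62, 0.00 and -0.06) were not tested. Among 6 tested neutrophil markers S100a9, Camp and Mpo were called lower in Cy5, with a summed log2 ratio of -1.12 to -0.28, and their part in these values was not tested.

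At 12 h in Experiment 2 none of the 9 genes, all of which could be tested, passed by limma (adjusted p 0.0948 to 0.892, none at an unadjusted p under 0.05 with a fold of 1.5), against 0% of all genes called while 5132 genes had an unadjusted p below that level. The 3 arrays differed among themselves. Replicates 1 and 2 had more Isg15 in Cy3 (230.5% and 314.5% of the 75th percentile) than in Cy5 (131% and 167.5%), and replicate 3 less (114.5% against 136%). Ifit1 ratios were -0.90, -0.95 and 4.74, the last with a Cy5 signal of 48.6% against 1.8% in Cy3, which was not well above background. Xaf1 (-1.20, -1.28 and 0.61), Ifit3 (-0.45, -0.38 and 0.61) and Usp18 (-0.58, -0.53 and 0.05) split the same way. Rsad2 (-1.16, 0.33 and 0.57), Irf1 (-0.50, 0.26 and 0.42) and Irf7 (-0.49, 1.08 and 1.42) were below 0 on replicate 1 only, and Ifit2 (0.45, 0.33 and 0.43) was above 0 on all. Without replicate 3, Ifit1 (-0.92), Isg15 (-0.87) and Xaf1 (-1.24) passed, among 815 genes in all.

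**Figure D2:**
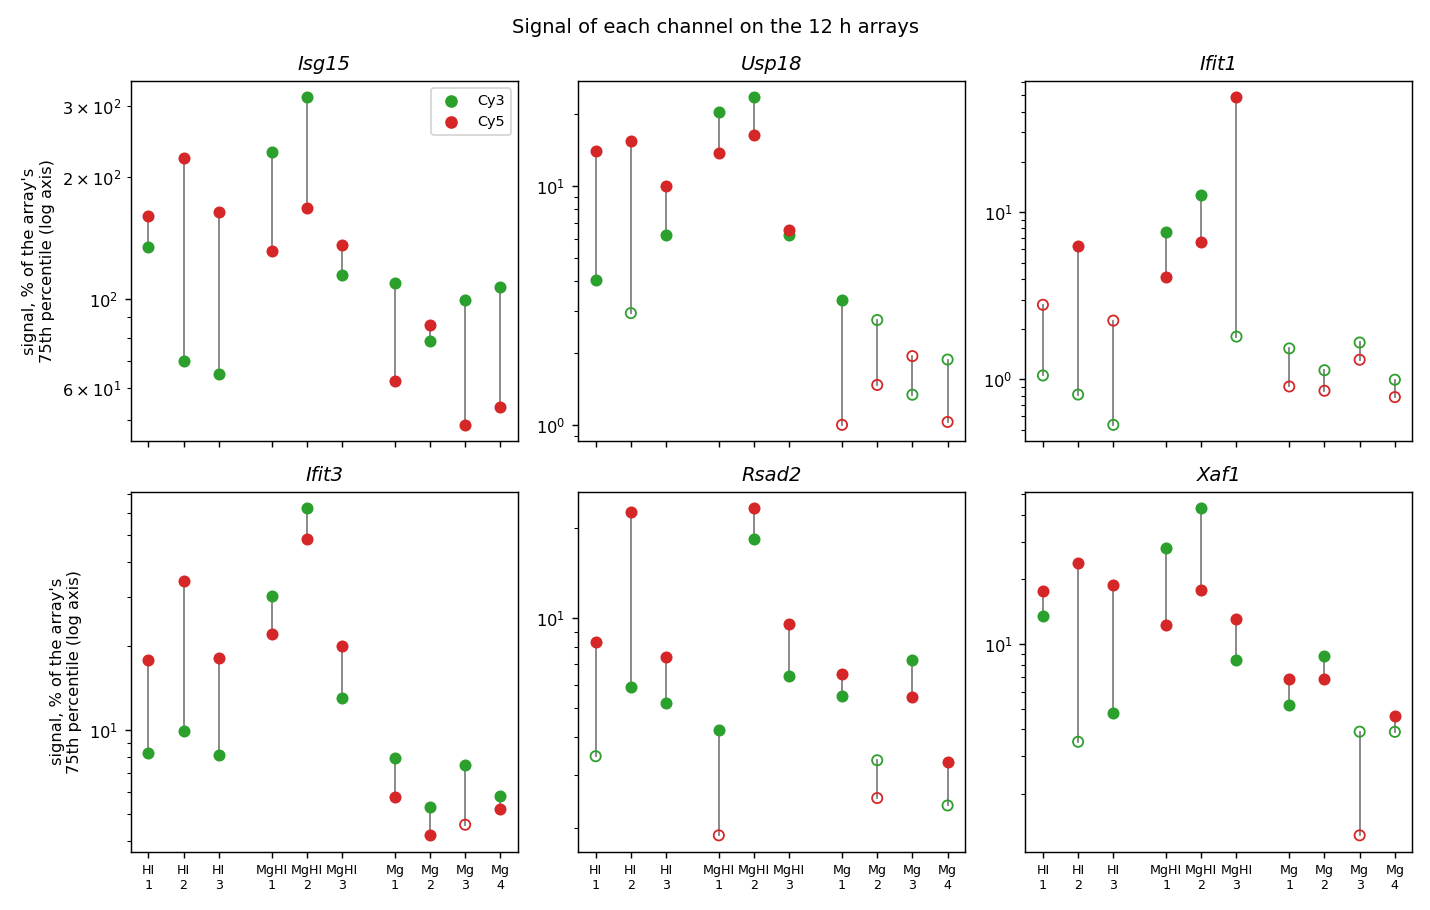
Signal of interferon-induced genes in each Cy3 and Cy5 sample of the 12 h arrays, as a percentage of the array's 75th percentile of signal (log y axis), by group and replicate (x axis), with a line joining the channels of an array and open points for signals not well above background. For Isg15 the HI samples in Cy5 sit at 160.2% to 222.8%, above the controls in Cy3 at 65.2% to 133.9%, and the MgHI arrays hold 114.5% to 314.5% in Cy3 and 131% to 167.5% in Cy5.

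The single channels of Experiment 2 were set against those of Experiment 3, which shared slides. Cxcl10, a chemokine that both interferon types induce, was well above background in Cy3 on all MgHI arrays. In the Cy3 controls of the HI arrays it was well above background on 1 of 3 arrays at each time. It passed the filter through the MgHI arrays alone and is given no difference. At 12 h the Cy3 samples of the MgHI arrays had higher means than the Cy3 controls of the HI arrays for all 8 tested genes. None was called (0% of all genes, 2497 at an unadjusted p under 0.05), and 5 of 8 were higher at an unadjusted p under 0.05 with a fold of 1.5, against 2.72%. Ifit1, counted among the 5, passed the filter through the MgHI arrays alone, was well above background in none of the HI controls and is given no difference. The differences were 1.83 for Xaf1 (limma adjusted p = 0.365), 1.78 for Usp18, 1.73 for Ifit3 and 1.25 for Isg15 (adjusted p = 0.352). Between the Cy5 samples of the 2 kinds of array none of 9 genes passed by limma, and none at the unadjusted p with a fold of 1.5 (adjusted p 0.288 to 0.845, 0% of all genes called), which does not show that they were alike. Of the 9, Ifit1 and Irf7 passed the filter through the MgHI arrays alone, being well above background in Cy5 on 1 of 3 HI arrays. At 3 h the Cy3 samples had log2 differences of 0.75 for Irf1 (adjusted p = 0.313) and 0.68 for Rsad2 (adjusted p = 0.0981). The Cy5 samples at 3 h differed by -0.76 for Xaf1 (adjusted p = 0.0597), which passed with the replicate number as a block (adjusted p = 0.0122), when 6.29% of all genes were called without the block.

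Other genes of the interferon system were taken from lists chosen with earlier results in view, and give the setting for the 9. Among other interferon-stimulated antiviral effectors, 2 of 35 tested were called higher and 6 lower at 3 h after HI (median -0.15), against 2.42% and 1.37% of all genes. At 12 h 36 of 40 had positive means (50.4% of all genes), with a median of 0.47, and none was called by limma. At an unadjusted p under 0.05 with a fold of 1.5, 14 were higher (6.57% of all genes). More genes were tested at 12 h than at 3 h, 40 against 35. Genes dim in control could enter through their HI signal alone, which favours positive means, here and in the lists below. Those called lower at 3 h were Rtp4 (-0.84, adjusted p = 0.0198), the ubiquitin ligase Trim21 (-0.79), Phf11d (-0.76), Ifit1bl1 (-0.74), the RNA-sensing enzyme Oas1a (-0.69) and the RNA sensor Ifih1 (-0.60), and Ms4a4c (0.70) and Ifi204 (0.72) were called higher. No 12 h mean was called, and those named here were chosen after their values were seen. They included Ifi204 (1.97), the ADP-ribosyltransferases Parp14 (1.83) and Parp12 (1.11), Oasl2 (1.77) and Rtp4 (0.86). Of the 25 control samples of Experiments 1 and 3, Parp14 was well above background in 6 and Oasl2 in 9. Their means may therefore rest on bounds. Ifit3b was well above background in 0 of the 25, entered through the HI channel alone and is given no value. Ifit3b is close in sequence to Ifit3, so probes of the pair may share signal.

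The interferon-inducible GTPases had medians of -0.22 at 3 h and 0.44 at 12 h. At 3 h 2 of 13 were called lower, Gbp4 (-1.03, adjusted p = 0.0122) and Igtp (-0.70, adjusted p = 0.0242), against 1.37% of all genes. At 12 h none of 14 was called and 6 were higher at the unadjusted p (6.57% of all genes), with, also named after the values were seen, Gbp2 at 2.40 (limma adjusted p = 0.0527), Gbp3 at 1.25, Irgm1 at 1.06 and Igtp at 0.98. Cxcl10 rose at 3 h with ratios of 3.83, 4.12 and 5.21 (mean 4.39, adjusted p = 0.0111), and at 12 h it had ratios of 4.47, 6.27 and 6.28 (mean 5.67, adjusted p = 0.0627). Its control was well above background on 1 of 3 arrays at each time, so Cxcl10 passed the filter through the HI channel. These means therefore rest on a bound and the size of the rise is not settled.

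Upstream, no ligand or receptor passed the test. None of 7 ligand genes and none of 6 receptor genes was called at 3 h, against 3.79% of all genes. At 12 h none of 7 ligand and none of 5 receptor genes was called, against 0.0106% of all genes. At these shares, lists this small would hold few calls or none, so the counts do not set them apart. The same shares apply to the calls in the other lists below. Ifnb1 and Ifng were not well above background in either channel on any HI array, so their levels there are only bounded. The receptor chain Ifnar2 had 0.37 at 3 h (adjusted p = 0.0290, under the fold of 1.5) and 0.44 at 12 h, and Ifnar1 had -0.07 and 0.43. For Ifngr1 the means were -0.23 and -0.33 and for Ifngr2 -0.14 and -0.18. Il10rb, shared with lambda interferon, had -0.35 at 3 h (adjusted p = 0.0438, under the fold of 1.5) and 0.19 at 12 h, and Ifnlr1 had 0.19 at 3 h and was not tested at 12 h. Stat2 and Irf9, which act downstream of the type I receptor, had -0.18 and -0.07 at 3 h and -0.40 and 0.09 at 12 h, and neither was called. Among negative regulators Socs3, which blocks JAK kinases, rose at 3 h (1.71, adjusted p = 0.00591) and had 0.61 at 12 h. Uba7, the enzyme that activates ISG15 for conjugation, fell by 0.69 at 3 h (adjusted p = 0.0162) and had -0.60 at 12 h, opposite in sign to the 12 h ratio of Isg15. Of 14 sensor genes Ifih1 was the only one called at 3 h. Of 5 other IRF genes none was called, and Irf8 had 0.67 at 12 h. Antigen presentation genes had no call at either time, with 2 of 14 (Tap2 and Psmb8) higher at the unadjusted p at 12 h (6.57% of all genes). No gene of these lists was called after MgSO4 alone at any time, when 0% to 0.0283% of all genes were.

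**Figure D3:**
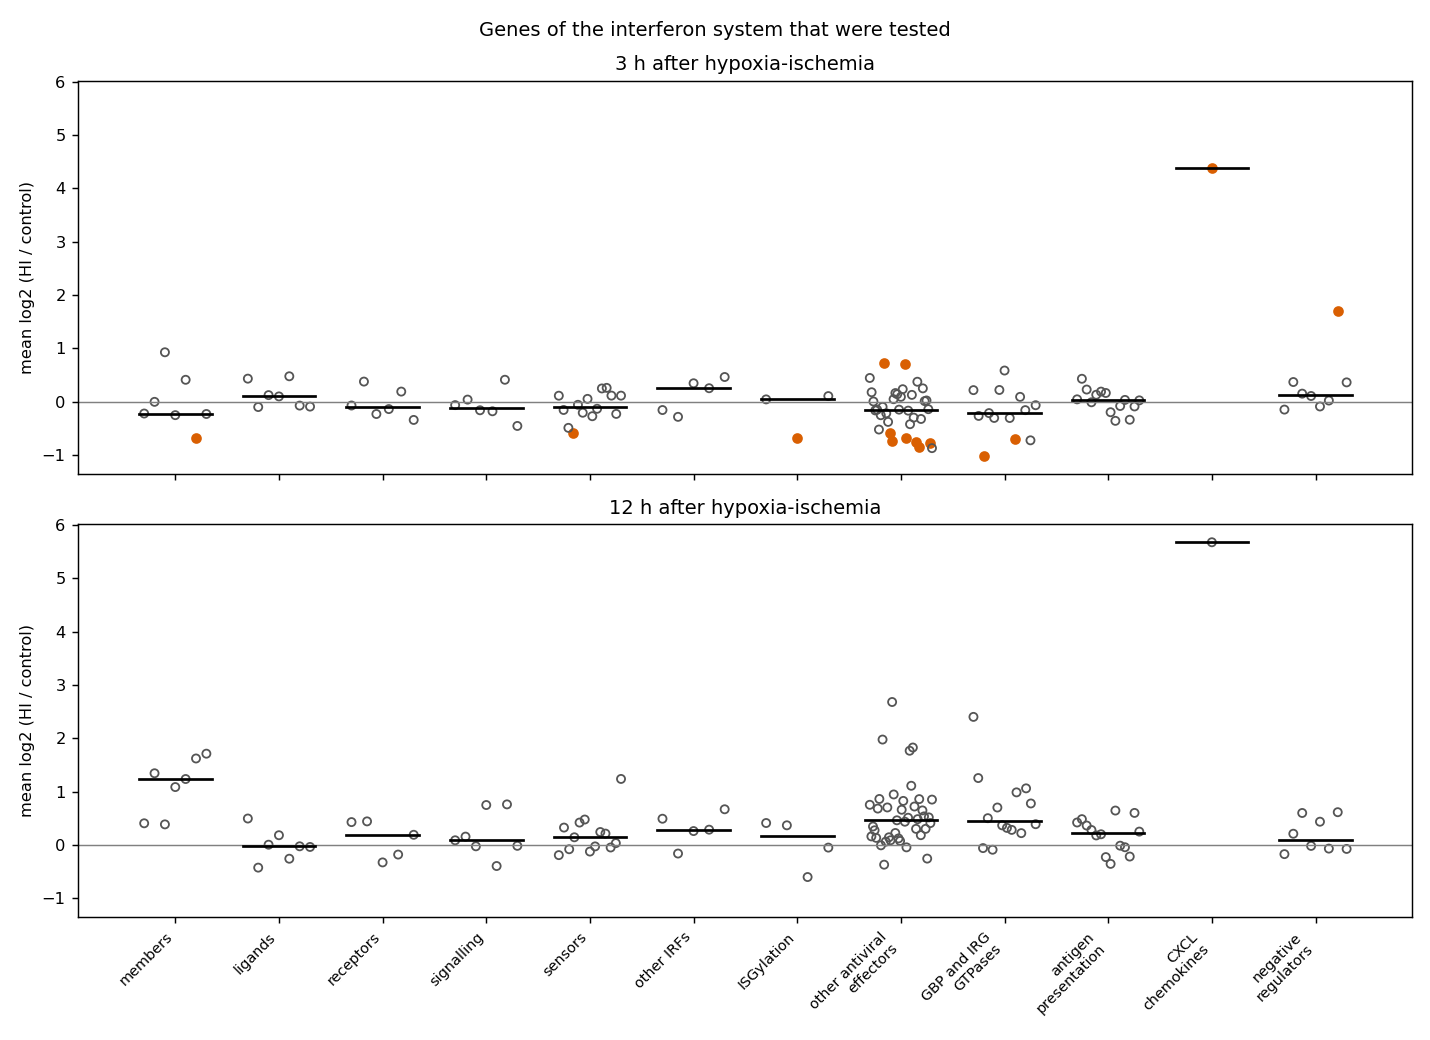
Mean log2 ratio of HI over control (y axis) at 3 h and at 12 h for each tested gene of the interferon system, by list (x axis), with a point per gene (filled where called), a bar at the list's median and the 9 genes as members. The medians of the 9 genes' tested members are -0.23 at 3 h and 1.23 at 12 h, and those of other antiviral effectors are -0.15 and 0.47.

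Across all 31 arrays, whose groups share slides and reference pools, the members differed in how alike they were. Pearson's r of log2 ratios was 0.71 for Ifit3 with Isg15, 0.67 for Ifit3 with Usp18 and 0.67 for Isg15 with Xaf1, and -0.18 for Ifit2 with Isg15. The mean ratio over the 9 genes was 0.76, 1.78 and 0.86 on the 12 h HI arrays and -0.63, -0.23 and 1.01 on the 12 h MgHI arrays. This mean takes in dim signals. The value of 1.01 includes the Ifit1 ratio of 4.74, whose Cy3 signal was not well above background. Of 15477 other genes, those whose ratios followed this mean most closely over the 31 arrays were Ifi207 (r = 0.85), Gbp2 (0.84), Rtp4 (0.83), the chemokine Ccl12 (0.81), the metalloproteinase inhibitor Timp1 (0.80), the chemokine Ccl7 (0.79), the ubiquitin ligase Trim25 (0.78) and Parp9 (0.78). Spearman's rho for the same 8 genes was lower, from 0.53 for Gbp2 to 0.72 for Ifi207. At 12 h after HI the mean ratios of these 8 genes ran from 0.37 for Trim25 to 2.69 for Ccl12. The genes most like Irf1 alone were others, namely H1f2 (0.80), Emp1 (0.80), Hspa14 (0.80), Adpgk (0.79) and Dusp14 (0.79). These correlations describe the arrays and carry no test.

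**Figure D4:**
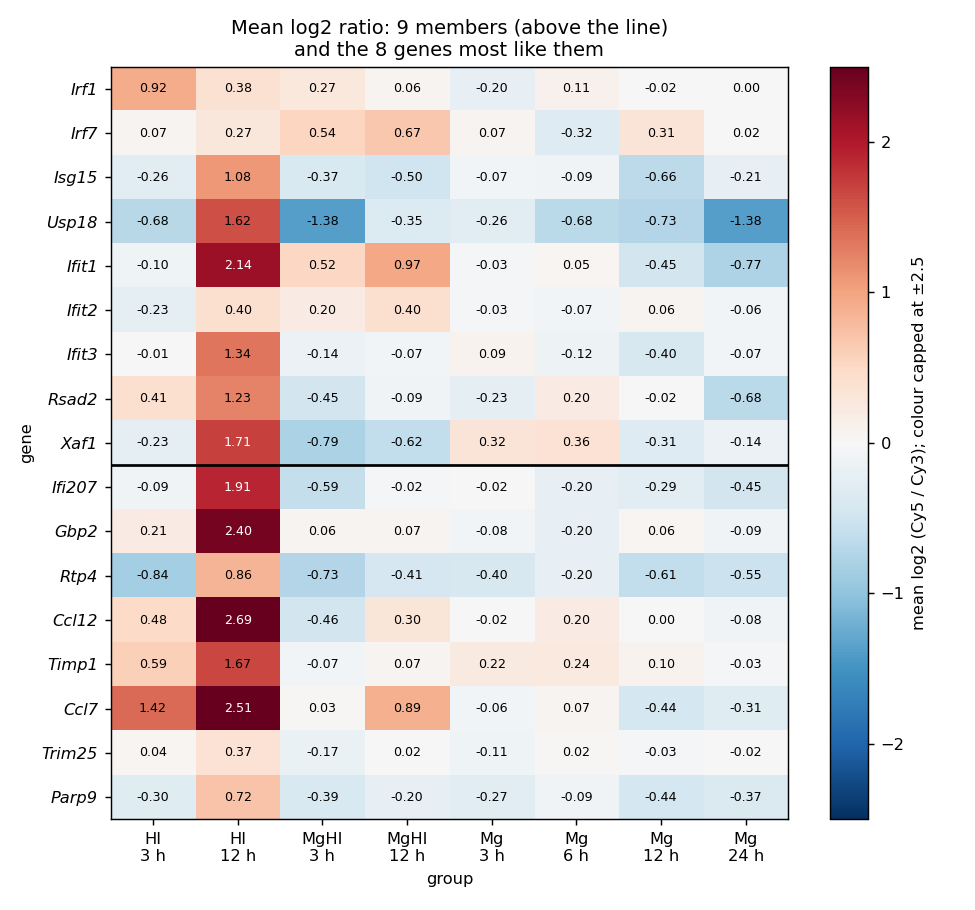
Mean log2 ratio of Cy5 over Cy3 in each group (columns) of the 9 interferon-induced genes (above the line) and of the 8 genes whose ratios were most like their mean over 31 arrays (below the line), as colour. At 12 h after HI Gbp2 reads 2.40 and Ccl12 2.69, and at 3 h Gbp2 reads 0.21 and Rtp4 -0.84.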

How the data were processed

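RNA was hybridised to 31 2-colour Agilent arrays (44397 features, 39429 probes) on 9 slides, scanned with Feature Extraction 10.5.1.1. The deposited scanner files hold each channel's intensity, which the authors' scanner software had background-subtracted and dye-normalised, and the deposited value table holds their log10 ratio (column medians 0, undetected ratios set to 0, within 0.05 on the log2 scale for 72.8% to 100% of probes), used as an alternative. Log2 ratios of the processed Cy5 over Cy3 signals were tested with limma 3.58.1 (R 4.3.3) per group, with Benjamini-Hochberg adjustment over all tested probes; calls took a fold of 1.5 with p of 0.05, which is 1 of the routes in the authors' methods and supplement; their other route, a mean change of 2-fold or more, was an alternative added after the data were seen. Replicate probes were averaged. RefSeq accessions named 27427 probes with 1 symbol (69.6%); 930 Rik symbols were left out and 19902 genes remained. Genes named in the text were the members, called list genes (at most the 5 largest per list, others added after their values were seen), receptors, Stat2, Irf9 and the genes ranked highest by correlation. The members and all lists were chosen with earlier results of these data known. The fit was tested on simulated data with 200 changed probes. Same-numbered HI and MgHI arrays deviated together at 3 h (r 0.17 to 0.51) and in Cy5 at 12 h (0.27 to 0.44), and were treated as paired in the alternative fit. The Cy5 treatment label of the HI arrays names MgSO4, against their titles and sources; they were taken as HI alone. The study's 1 h 30 min arrays were not analysed here, and a signalling result is not reported here. Promoter entries came from RefSeq (GRCm38.p6), whereas the array design names mm9; Usp18 had no entry. The alternatives tried were other background corrections, filters, slide and replicate blocks, the methods' t-test, a pooled fit and each array left out. The number of arrays, 3 to 7 per group, limits the precision.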

Additional observations from a re-analysis of the deposited data

Results flagged for a closer look

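Irf7 at 6 h after MgSO4 stood apart on 1 array: replicate 5 had a log2 ratio of -1.32, from signals well above background in neither channel, when the other 6 arrays lay between -0.41 and 0.14. It was the only such array among 36 gene and group combinations tested, where chance gives about 1 in 20.

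For 3 genes the ratio after HI was below 0 on every 3 h array and above 0 on every 12 h array. Over all tested probes, 32.1% were below 0 on every 3 h array and 24.6% were above 0 on every 12 h array. The share with both was not counted. The 12 h minus 3 h difference was 0.63 for Ifit2 (limma adjusted p = 0.184), 1.34 for Isg15 (adjusted p = 0.156) and 2.30 for Usp18 (adjusted p = 0.108). None passed the correction over all genes.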

How the results depend on the processing

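The 3 arrays per HI group limit every call, and dim probes (Ifit1, Irf7, Usp18) have only bounds in many samples. The number of interferon-induced genes called at 3 h after HI (1) was 0 without the filter on dim probes, by a mean change of 2-fold or more and with the methods' t-test after Benjamini-Hochberg adjustment, and 0 to 2 with 1 array left out. At 12 h after HI (0 called) it was 1 without background subtraction, 1 with the methods' t-test at unadjusted p, 5 with the fit over all 8 groups, 5 by a mean change of 2-fold or more and 0 to 5 with 1 array left out. The count at unadjusted p there (5) was 2 with normexp, 1 with the methods' t-test before and 1 after adjustment, and 5 to 5 with 1 array left out. For 12 h minus 3 h it was 3 with normexp, 2 with slide as a fixed block, and 4 to 6 with 1 array left out, against 6. On the MgHI arrays at 3 h (1 called) it was 0 with normexp, without background subtraction, with either form of the t-test, by a mean change of 2-fold or more and with the fit over all 8 groups, and 0 to 1 with 1 array left out. At 12 h it was 0 to 3 with 1 array left out. For HI minus MgSO4 ratios it was 1 at 3 h with normexp or without background subtraction and 1 at 12 h with normexp. For the Cy5 channels at 3 h (0 called) it was 1 with slide as a fixed block, with the replicate block and with quantile normalization, and 0 to 1 with 1 array left out. The replicate block changed no other call in the pairs of groups. The ratio of Ifit3 at 3 h after HI (-0.01) was 0.0022 with normexp, 0.047 without background subtraction and -0.12 to 0.073 with 1 array left out, and that of Xaf1 (-0.23) was -0.48 to 0.077 with 1 array left out (above 0 without replicate 1). A random slide block could not be fitted for the HI and MgHI groups or for HI minus MgSO4 at 12 h. The cause of these differences was not tested.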
